A study of Mus musculus with 1019 samples.

Results

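Among regulatory T cells (Tregs) sorted from mouse spleen, 96 cells (25.6% of the spleen library, exact 95% interval 21.3 to 30.3) held mRNA of genes typical of tissue Tregs. They were selected on their counts: a spleen cell was taken when it had 1 or more unique molecular identifiers (UMIs, each standing for 1 captured mRNA molecule) summed over 10 genes, Klrg1, Il1rl1, Gata3, Areg, Il10, Ccr2, Cxcr6, Pparg, Rora and Irf4. These cells are called carriers here, and the spleen cells with 0 UMIs of the 10 genes are the other spleen cells. The series held 1019 cells in all, from 2 libraries of visceral adipose tissue (VAT) and 1 spleen library. The assay was inDrops, in which single cells are enclosed in droplets and their polyadenylated mRNA is captured.

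All cells came from male B6 mice aged 20 months and were sorted as DAPI- TCRb+ CD4+ CD25+. Foxp3 is not among these markers, so a cell without a Foxp3 UMI is called a Treg here by its sort alone. Spleens were dissociated mechanically, whereas the fat was broken down with the enzymes collagenase and dispase, so a VAT level stands for the tissue and the digestion together. The labels of the spleen cells disagreed: the source field gave spleen, the tissue field named spleen and adipose tissue, and the replicate number differed between the title and the sample type. The cells were placed by their source. No label named an animal, so the carriers and the other spleen cells are cells of 1 sample, the differences have no replicate check, and no test was made. Intervals are exact, at 95%, and reflect counting error alone.

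Tregs are CD4 T cells that restrain immune responses under the transcription factor Foxp3. Many Tregs of lymphoid organs recirculate and carry homing molecules such as CCR7. Tregs that settle in adipose tissue carry the IL-33 receptor ST2, the inhibitory receptor KLRG1 and transcription factors such as GATA3, IRF4 and PPARg, and spleen Tregs of the effector type can carry part of that equipment.

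Among the genes that defined the carriers, Gata3, a zinc finger factor best known from type 2 helper cells, dominated. Gata3 (chromosome 2, 9857078 to 9890034) was present in 70 carriers, at 230.1 CPM over the spleen library (UMIs scaled to its total), and in 58 of them it was the only gene of the 10. Klrg1, an inhibitory lectin-like receptor, had 51 UMIs in 12 carriers, up to 12 in 1 cell. Il1rl1, which encodes the IL-33 receptor, had 15 UMIs in 12 carriers.

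The other genes of the rule were found in few cells. Irf4, a transcription factor of effector Tregs, had 10 UMIs in 7 carriers. Areg, which encodes the tissue repair factor amphiregulin, had 20 UMIs in 6 carriers, and Il10, an inhibitory cytokine, had 8 UMIs in 3. The chemokine receptor genes Ccr2 and Cxcr6 had 4 UMIs in 4 carriers and 2 UMIs in 2. Pparg, a fatty acid sensing nuclear receptor, was found with 2 UMIs in 1 carrier, and Rora, a nuclear receptor, had 1. On the threshold, 50 carriers had exactly 1 UMI of the 10 genes and the cells just outside had 0. A further 16 carriers had 2 UMIs, 11 had 3, and 19 had 4 to 23.

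In VAT the same 10 genes were present in nearly every cell. After each cell was thinned at random to 800 UMIs, 97.9% of cells of VAT library 2 and 97.8% of VAT library 3 held 1 or more of their UMIs, against 66 spleen cells (17.6%). Without thinning the shares were 98.5% and 98.7% in VAT, against 25.6% in spleen. The mean per thinned cell was 8.03 and 7.79 UMIs in VAT, against 0.355 in spleen. As a ratio of thinned shares, Gata3 came closest to VAT, with 54.8% and 50.3% of VAT cells against 12% of spleen cells. Klrg1 was seen in 73.6% and 74.8% of VAT cells, against 2.67% of spleen cells. The table holds no cell type that should lack these genes, so a background share from free RNA was not available, and a single UMI in a carrier cannot be told apart from it.

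**Figure D1:**
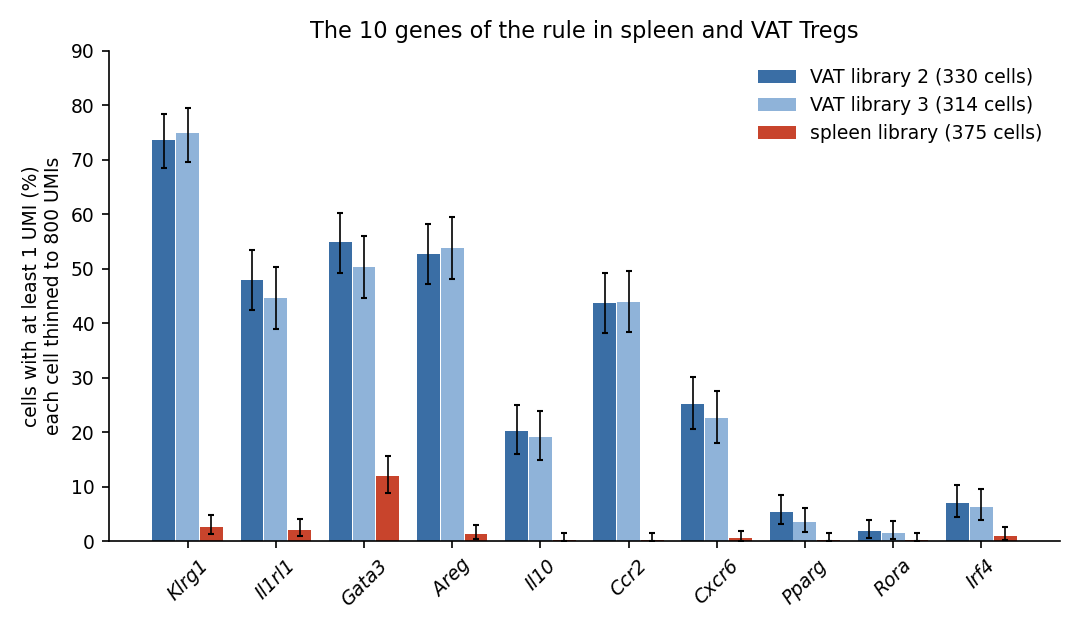
Percent of cells with at least 1 UMI of each gene of the rule after thinning to 800 UMIs per cell, in VAT library 2, VAT library 3 and the spleen library; bars start at 0 and error bars are exact 95% intervals. In spleen Gata3 stands at 12% and Klrg1 at 2.67%, with every gene below both VAT libraries.

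Cells with Klrg1 often held another gene of the rule. Of the 12 cells with Klrg1, 8 (66.7%, 34.9 to 90.1) held a UMI of another of the 10 genes, against 23.1% of cells without Klrg1 (18.9 to 27.8). After thinning to 800 UMIs these were 7 of 10 cells (70%), against 15.3%. For Gata3 the overlap was smaller, 12 of 70 cells (17.1%, 9.18 to 28.03) against 8.52% of cells without it (5.64 to 12.2). After thinning these were 13.3% (5.05 to 26.8) and 6.36% (3.98 to 9.56), and the intervals overlapped at both depths. Without thinning, 4 of 12 cells with Il1rl1 (33.3%, 9.92 to 65.1) held another gene of the rule, against 23.1% without it. For Irf4 it was 6 of 7 cells (85.7%, 42.1 to 99.6) against 24.2%. After thinning, Irf4 had 2 of 4 cells (50%, 6.76 to 93.2) against 16.7% (13.1 to 20.9), and Il1rl1 2 of 8 (25%, 3.19 to 65.1) against 15.8% (12.2 to 19.9). Both pairs of thinned intervals overlapped. In all, 77 carriers held 1 of the 10 genes, 17 held 2, 1 held 3 and 1 held 4. These values describe how the rule picked its cells and support nothing further.

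Depth differed little between the groups. With the 10 genes left out, carriers held 873 to 4241 UMIs (median 1436), and other spleen cells 819 to 3325 (median 1421). Median genes with a UMI were 690 in carriers and 652 in other spleen cells. Ribosomal protein genes took a median of 25.9% of a carrier's UMIs, against 30.3% in other spleen cells, and 17.7% and 19.2% in the VAT libraries. All later comparisons leave the 10 genes out and use cells thinned to 750 UMIs, which kept all 96 carriers, with 72000 UMIs, and every other spleen cell, with 209250. No doublet caller was run. The spleen library shared 0 cell barcodes with VAT library 2 and 1 with VAT library 3, and that spleen cell was not a carrier.

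Other VAT-high genes followed the 10 genes, at a small fraction of the VAT level. The VAT-high genes are the 10.3% of 4626 genes with 50 or more UMIs over the 3 libraries that both VAT libraries held at 2-fold or more over the whole spleen library, and the VAT-low genes are the 4.47% that both held at 2-fold or more below it. Per cell, carriers held 7 to 96 VAT-high UMIs with a median of 26, and other spleen cells held 4 to 56 with a median of 19. The groups overlapped over most of their range. The means were 28.2 UMIs in carriers and 20.2 in other spleen cells, a ratio of 1.40 (1.33 to 1.46). UMIs of 1 gene clumped in cells (1.22 UMIs per cell with a UMI at the median gene, 1.04 if they fell independently), so these intervals are too narrow.

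VAT cells stood far above both groups of spleen cells. Their means were 135.4 and 131.6 VAT-high UMIs per cell, and their lowest cells had 37 and 25. Only 4 of 96 carriers lay above the highest other spleen cell, which had 56. Against the median of the other spleen cells, 72 of 96 carriers lay above it, and 30 of 96 lay above their 90th percentile of 30 UMIs. A single carrier reached the 5th percentiles of the VAT libraries, 82.35 and 83.95 UMIs.

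**Figure D2:**
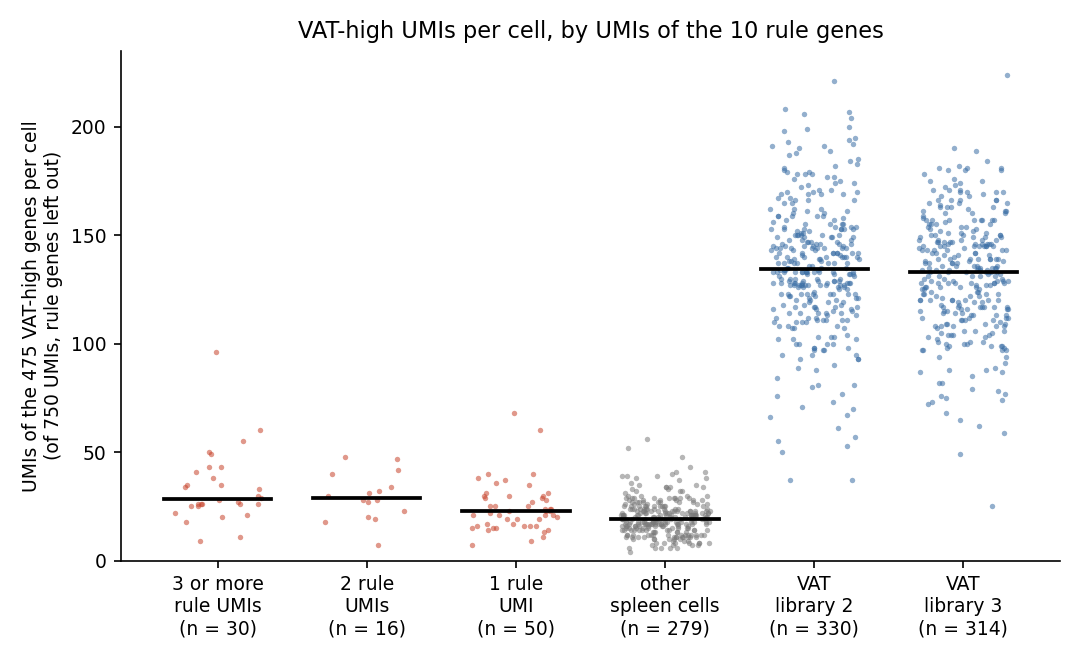
UMIs of the VAT-high genes in each cell after thinning to 750 UMIs, with the genes of the rule left out; each point is 1 cell and the black line is the median. Carriers with 3 or more, 2 and 1 UMIs of the rule genes have medians of 28.5, 29 and 23, the other spleen cells 19, and VAT cells have means of 135.4 and 131.6.

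The excess was larger for genes that marked VAT more strongly. Genes 2 to 4-fold higher in the lower of the VAT libraries had a ratio of carriers over other spleen cells of 1.23 (1.16 to 1.30). Genes 4 to 8-fold higher had a ratio of 1.56 (1.40 to 1.75). Genes 8-fold or more higher had a ratio of 2.03 (1.82 to 2.27), with means of 5.84 UMIs in carriers and 2.87 in other spleen cells. The VAT means of these last genes were 70.8 and 69.9 UMIs, so carriers lay far below VAT. With the AP-1, immediate early and NF-kB lists left out of the VAT-high genes, the ratio was 1.34 (1.28 to 1.41).

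Read the other way round, cells with more VAT-high UMIs were more often carriers. Among spleen cells with 40 or more VAT-high UMIs, 16 of 23 were carriers (69.6%, 47.1 to 86.8), and among those with 0 to 14, 9 of 79 (11.4%, 5.34 to 20.5). The median total UMIs of these bins were 1354 and 1568. When carriers were called after thinning whole cells to 800 UMIs, the shares were 56.5% and 7.59%. The other 7 cells with 40 or more VAT-high UMIs held none of the 10 genes.

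**Figure D3:**
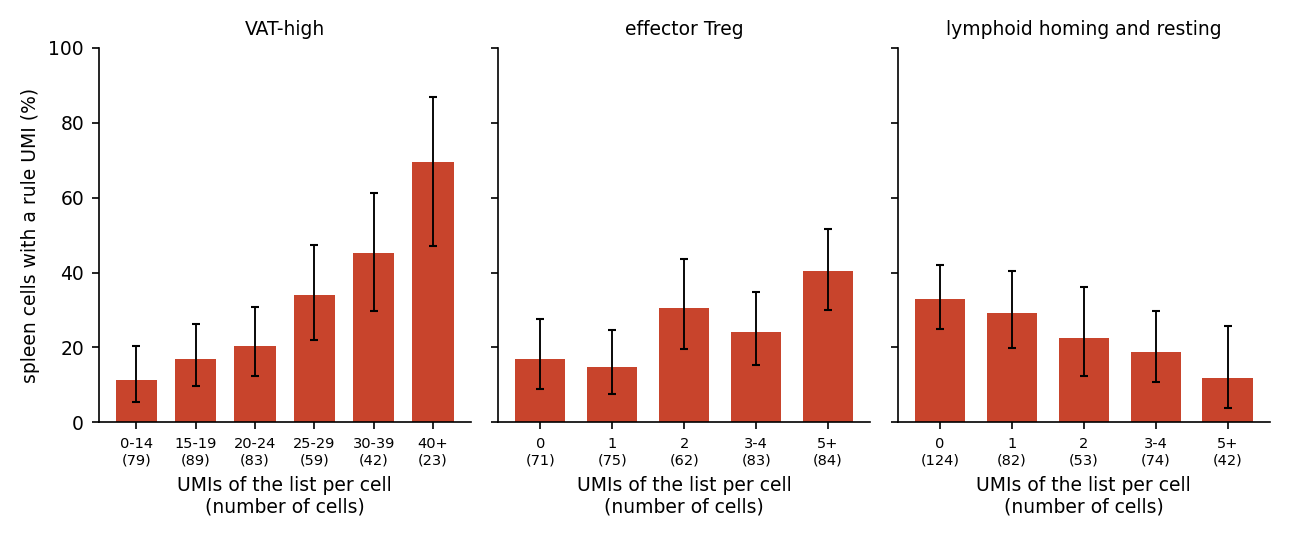
Percent of spleen cells that were carriers, by the UMIs a cell held of the VAT-high, effector Treg, and lymphoid homing and resting genes after thinning to 750 UMIs; cell numbers are in parentheses, bars start at 0 and error bars are exact 95% intervals. The share is 69.6% at 40 or more VAT-high UMIs, 40.5% at 5 or more effector Treg UMIs and 11.9% at 5 or more homing and resting UMIs.

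Gene by gene, 97 VAT-high genes had 20 or more UMIs over the thinned spleen cells. In carriers 22 of the 97 lay 2-fold or more above the other spleen cells and 7 lay 2-fold or more below, with a median log2 ratio of 0.50. Over all 2268 genes with 20 or more UMIs, 7.19% lay 2-fold or more above and 8.99% 2-fold or more below, with a median of 0.05. The VAT-high shares were thus 22.7% higher and 7.22% lower. Few UMIs make a 2-fold difference easy to reach: among all genes with 100 or more UMIs, 2% were higher, against 4 of 17 VAT-high genes. Of all VAT-high genes, measured or not, 98 had no UMI in the thinned carriers. Fosb, Lgals3, Klf4, Ccr1, Ccr3 and Gzmb had no UMI in any thinned spleen cell, chosen here after their values were seen.

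**Figure D4:**
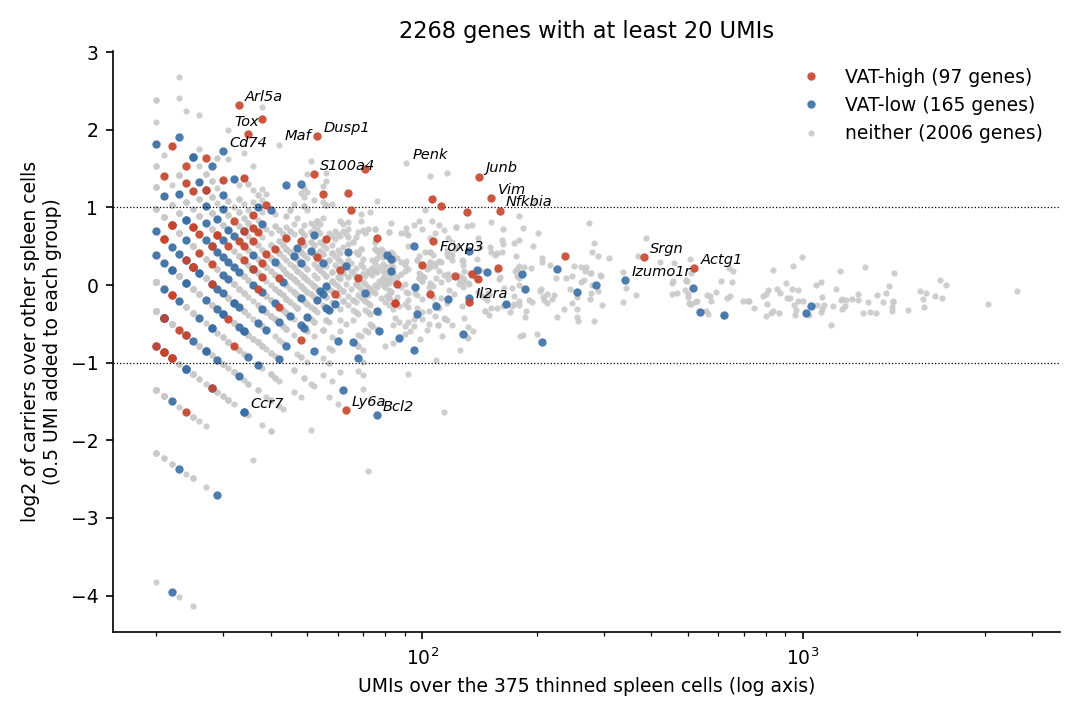
log2 ratio of carriers over other spleen cells against the UMIs of a gene over the thinned spleen cells, for the 2268 genes with 20 or more UMIs; points are VAT-high, VAT-low or neither, and dotted lines mark 2-fold. VAT-high genes lie mostly above 0 (median 0.50), all genes around 0.05, and the spread narrows as UMIs rise.

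The 4 VAT-high genes with the largest ratios in carriers were Arl5a, Dusp2, Cish and Dusp1. Arl5a, which encodes a small GTPase of the ARF-like family, had 21 UMIs in carriers and 12 in other spleen cells, 5.09 times the level per cell (2.39 to 11.3). Its log2 ratio was -0.99 without cells that held a marker of another cell type, against 2.32 with all cells. Markers of another cell type, here and below, are those of the B cell, plasma cell, myeloid, CD8 and NK, and erythroid lists, Ctss included. Without thinning, 78.1% of carriers and 65.9% of other spleen cells held a UMI of them, so leaving such cells out removed most of both groups. Ctss alone was seen in 34.4% of carriers and 34.1% of other spleen cells. Holding such a UMI does not show that a cell is of another type. Dusp1 and Dusp2, phosphatases that switch off MAP kinases, were 3.79-fold (2.13 to 6.83) and 4.46-fold (2.23 to 9.18) higher in carriers. Cish, an inhibitor of cytokine signalling induced through STAT5, was 3.88-fold higher (1.89 to 8.13). Further down, Id2, a partner that blocks E-protein transcription factors, was 2.58-fold higher (1.23 to 5.37).

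Among the 12 VAT-high genes with most UMIs in spleen the ratios were smaller, from 0.846 to 2.63. The highest were Junb, an AP-1 subunit, at 2.63 (1.86 to 3.71), Vim, the intermediate filament vimentin, at 2.17 (1.55 to 3.03), Nfkbia, the inhibitor of NF-kB, at 1.94 (1.39 to 2.69), and Sh3bgrl3 at 1.91 (1.32 to 2.75). Nfkbia had a log2 ratio of -0.14 without cells that held a marker of another cell type. Srgn, the granule proteoglycan serglycin, had a ratio of 1.28 (1.02 to 1.59). Actg1, a cytoskeletal actin, had 1.16 (0.952 to 1.41), S100a10 1.16 (0.80 to 1.65), Pim1, a survival kinase, 1.04 (0.697 to 1.53), and Il2ra, which encodes the sorted marker CD25, 0.846 (0.544 to 1.28). Intervals of these last 4 spanned 1. Without these 12 genes the remaining VAT-high genes had a log2 ratio of 0.50, an alternative chosen after seeing the data.

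Some VAT-high genes went the other way. Ly6a, which encodes the surface protein Sca-1, had 6 UMIs in carriers and 57 in other spleen cells, a ratio of 0.306 (0.108 to 0.708), although it was seen in 54.5% and 51.3% of VAT cells. Its neighbour in the family, Ly6c1, had 3 UMIs in carriers and 25 in other spleen cells. Both belong to a multigene family, so reads shared between its members would make these values uncertain.

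Genes low in VAT were slightly lower in carriers as a group, though not in those with 1 UMI of the rule genes. VAT-low UMIs ranged from 14 to 53 in carriers (median 32), and from 13 to 57 in other spleen cells (median 35). The ratio was 0.929 (0.892 to 0.968). Among VAT-low genes with 20 or more UMIs, 14 were past 2-fold above and 19 past 2-fold below, which is 8.48% and 11.5% against 7.19% and 8.99% over all genes. VAT cells held a mean of 11.1 and 10.8 such UMIs, far below either group of spleen cells.

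Lymphoid homing and resting genes were lower in carriers as a group. Carriers held 0 to 7 UMIs of the list per cell (mean 1.29), and other spleen cells 0 to 12 (mean 2.07), a ratio of 0.625 (0.51 to 0.76). Of 15 measured genes 7 were at least 2-fold lower and 0 higher, against 8.99% and 7.19% of all genes, with a median log2 ratio of -0.85 against 0.05 over all genes. Without cells that held a marker of another cell type, the log2 ratio of the list was -0.20 with an interval that spanned 0, against -0.68 with all cells. Bcl2, which protects resting lymphocytes from apoptosis, had 7 UMIs in carriers and 69 in other spleen cells, a ratio of 0.295 (0.114 to 0.641). Without cells that held such a marker its log2 ratio was 0.59. That value came from 21 carriers with at most 7 UMIs of Bcl2, so its direction is uncertain. Ccr7, a chemokine receptor for entry into lymph nodes, had 3 UMIs in carriers and 31 in other spleen cells (0.281, 0.055 to 0.902).

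Other genes of the list varied. S1pr1, the receptor for exit from lymphoid organs, had 4 UMIs in carriers and 33 in other spleen cells (0.352, 0.091 to 0.99). Satb1, a chromatin organiser, had 7 UMIs in carriers and 30 in other spleen cells (0.678, 0.251 to 1.58). Klf2, the factor that drives S1pr1, had 15 UMIs in carriers and 33 in other spleen cells, with a ratio of 1.32 whose interval spanned 1 (0.667 to 2.50). For Satb1 and Klf2 no difference was detectable at this depth. Cells rich in the list were seldom carriers: 5 of 42 cells with 5 or more such UMIs (11.9%), against 33.1% of those with 0.

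Effector Treg genes were higher in carriers. Carriers held 0 to 17 UMIs of the list per cell (median 3, mean 4.16), and other spleen cells 0 to 13 (median 2, mean 2.37), a ratio of 1.75 (1.54 to 1.99). VAT means were 5.91 and 5.17. The VAT-high genes were chosen for a VAT excess and this list was not, so their distances to VAT cannot be compared. Of 15 measured genes 7 were at least 2-fold higher and 1, Ly6a, lower, against 7.19% and 8.99% of all genes. Without cells that held a marker of another cell type, the log2 ratio of the list was 0.39 with an interval that spanned 0, against 0.81 with all cells. Icos, a costimulatory receptor (chromosome 1, 60977927 to 61000320), had 56 UMIs in carriers and 60 in other spleen cells, a ratio of 2.71 (1.85 to 3.97). It was seen in 25% of carriers and 12.2% of other spleen cells, and in 36.5% and 17.9% of them without thinning.

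Several other genes of the list were higher too. Tnfrsf4, which encodes OX40, had 50 UMIs in carriers and 55 in other spleen cells (2.64, 1.76 to 3.95), and Tnfrsf18, which encodes GITR, 31 and 52 (1.73, 1.07 to 2.75). Tnfrsf1b and Tnfrsf9, which encode TNFR2 and 4-1BB and were named after their values were seen, had ratios of 2.71 (1.54 to 4.74) and 2.05 (1.16 to 3.56). Maf, a transcription factor linked to Il10 expression (chromosome 8, 115682942 to 115707794), had 23 UMIs in carriers and 19 in other spleen cells (3.52, 1.83 to 6.83). Ctla4, an inhibitory receptor, had 16 and 23 UMIs (2.02, 0.998 to 3.997), and Cd44, the adhesion receptor of activated T cells, 14 and 22 (1.85, 0.875 to 3.78), both with intervals that reached 1. Tigit had 2 UMIs in carriers and 4 in other spleen cells, too few to compare. None of Icos, Tnfrsf4, Tnfrsf18, Maf, Tnfrsf1b and Tnfrsf9 was a VAT-high gene.

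The remaining tissue Treg list, without the 10 genes of the rule, was sparse. Of its 23 rows 3 had 20 or more UMIs, and 8 had none in the thinned spleen cells, among them Ccr1, Ccr3, Ccr8, Gzmb and Adam8. Over the list 42.7% of carriers and 24.7% of other spleen cells held a UMI, with 78 UMIs in carriers and 97 in other spleen cells, a ratio of 2.34 (1.71 to 3.18). In the 50 carriers with 1 UMI of the rule genes the ratio was 1.27, with an interval that spanned 1 (0.758 to 2.03). It was 2.70 (1.45 to 4.67) in the 16 with 2 and 3.93 (2.66 to 5.72) in the 30 with 3 or more. Of the 78 UMIs in carriers, Maf gave 23 and Id2 gave 16. Batf, which forms AP-1 complexes with Irf4, had 9 UMIs in carriers and 17 in other spleen cells (1.54, 0.604 to 3.65), and Rbpj 4 and 13. VAT means of the list were 4.66 and 4.26 UMIs, against 0.813 in carriers and 0.348 in other spleen cells.

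Treg identity genes differed little over all carriers, and more in those with 3 or more UMIs of the rule genes. Foxp3 was seen in 25 of 96 carriers (26.04%) and 21.5% of other spleen cells (16.8 to 26.8), a difference of 4.54 percentage points whose interval ran from -5.41 to 15.5. Without thinning the shares were 42.7% in carriers and 31.9% in other spleen cells. Among carriers with 2 or more UMIs of the rule genes the thinned difference was 17.6 points (2.62 to 33.8), and without cells that held a B cell, CD8 or NK marker it was -4.65 points. Of the 50 carriers with 1 such UMI, 7 held Foxp3 after thinning (14%, 5.82 to 26.7), and 30% did without thinning. For the 58 carriers with Gata3 alone these shares were 20.7% (11.2 to 33.4) and 39.7%. Over the Treg core list, carriers held 3.71 UMIs per cell and other spleen cells 3.03, a ratio of 1.22 (1.08 to 1.39), with 2 of 12 measured genes at least 2-fold higher and 1 lower, against 7.19% and 8.99% of all genes. The list's ratio was 0.970 (0.808 to 1.16) in the 50 carriers with 1 UMI of the rule genes. It was 1.17 (0.882 to 1.54) in the 16 with 2, 1.67 (1.40 to 1.99) in the 30 with 3 or more, and 2.06 (1.61 to 2.61) in the 12 with Klrg1.

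Within the Treg core list, Ikzf2, which encodes Helios, had a ratio of 1.49 (1.08 to 2.05) and Il2rb, the beta chain of the IL-2 receptor, 1.17 (0.69 to 1.93). Izumo1r, which encodes folate receptor 4, had 93.75 UMIs per 100 carriers and 89.96 per 100 other spleen cells, a ratio of 1.04 (0.81 to 1.33). It was seen in 47.9% of carriers and 48.7% of other spleen cells, against 4.55% and 5.73% of VAT cells, so on this VAT-low gene the carriers lay with the spleen. Itgae, the integrin chain CD103, had 13 UMIs in carriers and 12 in other spleen cells (3.15, 1.32 to 7.55), while VAT cells showed it in 0.606% and 0.637%. Cd4 was 1.59-fold higher in carriers (1.17 to 2.14), and genes of the T cell receptor complex with Cd4 had a ratio of 1.14 (1.01 to 1.29), with 0 of 11 genes past 2-fold either way, against 7.19% higher and 8.99% lower of all genes.

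S100, annexin and cytoskeleton genes were moderately higher. Carriers held 0 to 25 UMIs of the list (median 5), and other spleen cells 0 to 14 (median 4), a ratio of 1.37 (1.24 to 1.51). In the 50 carriers with 1 UMI of the rule genes the ratio was 1.12, with an interval that spanned 1 (0.973 to 1.29). It was 1.84 (1.52 to 2.22) in the 16 with 2 and 1.53 (1.30 to 1.78) in the 30 with 3 or more. Of 17 measured genes 5 were at least 2-fold higher and 0 lower, against 7.19% and 8.99% of all genes. S100a4 and S100a6, calcium-binding proteins of motile cells, had 25 and 24 UMIs in carriers, against 27 and 31 in other spleen cells, ratios of 2.69 (1.498 to 4.82) and 2.25 (1.26 to 3.96). S100a4 was seen in 14.6% of carriers and 6.81% of other spleen cells, and in 95.8% and 97.1% of VAT cells. Anxa6 (1.10, 0.731 to 1.62) and Crip1 (0.999, 0.586 to 1.64, named after its value was seen) showed no such difference. The VAT means of the list were 32.8 and 35.2 UMIs, against 5.80 in carriers and 4.24 in other spleen cells.

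AP-1 and immediate early genes and NF-kB targets were higher in carriers, from a few cells in part. The AP-1 list had 0 to 21 UMIs per carrier and 0 to 10 per other spleen cell, a ratio of 1.93 (1.63 to 2.28). Of 10 measured genes 3 were at least 2-fold higher (Junb, Dusp1 and Dusp2) and 0 lower, against 7.19% and 8.99% of all genes. The medians were 1 UMI in both groups, and 63.5% of carriers and 58.8% of other spleen cells held any. Junb reached 14 UMIs in 1 carrier and 4 in 1 other spleen cell. Jund had a ratio of 1.19 (0.743 to 1.85), Nr4a1, induced by T cell receptor signals, 1.74 (0.777 to 3.75) and Klf6 1.45 (0.745 to 2.73). The NF-kB list had a ratio of 1.62 (1.33 to 1.98), with Nfkb1 at 1.76 (1.04 to 2.93) and Tnfaip3 at 1.45 (0.662 to 3.02). VAT means were 24.9 and 23.1 UMIs for the AP-1 list, against 2.46 in carriers and 1.28 in other spleen cells.

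Other lists differed little or rested on few UMIs. Interferon response genes had a ratio of 0.857 (0.751 to 0.976), with 0 of 12 genes at least 2-fold higher and 2 lower, against 7.19% and 8.99% of all genes. Proliferation genes had 1.24 (1.06 to 1.46), chemokine receptors and integrins 0.922 (0.777 to 1.09) and MHC class I 1.07 (1.01 to 1.13). Ribosomal protein genes had a ratio of 0.871 (0.857 to 0.885), with carriers at 198.2 UMIs per cell and other spleen cells at 227.7. Genes of other helper T cell lineages had 2 UMIs in carriers and 23 in other spleen cells, and Il4, Il5, Il13 and Il17a had none in either group.

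**Figure D5:**
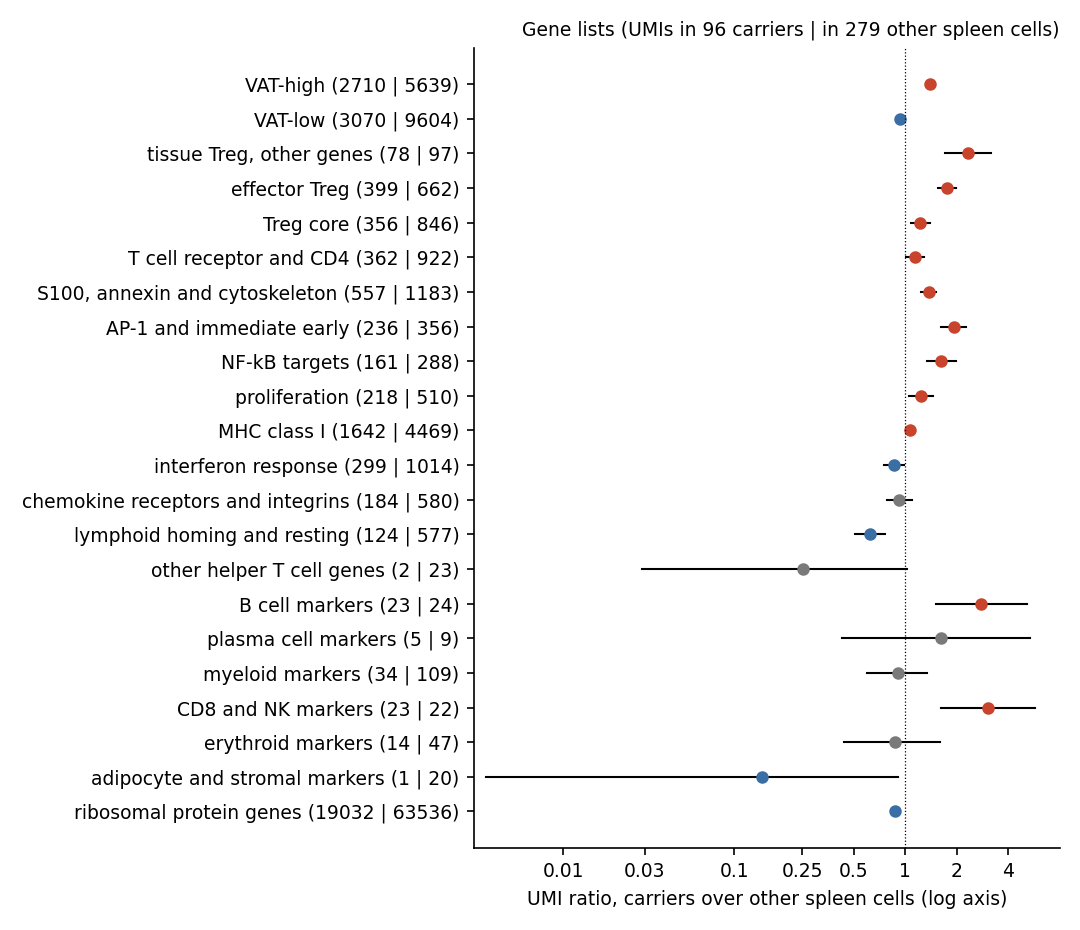
Ratio of UMIs in carriers over other spleen cells for each gene list, on a log axis, with exact 95% counting intervals and the UMIs of carriers and of other spleen cells in parentheses; red and blue points have intervals above and below 1, grey points span it. Effector Treg (1.75) and AP-1 (1.93) lie above 1 and homing and resting genes (0.625) below.

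Over all 1431 genes with 30 or more UMIs in 10 or more spleen cells, the 12 highest in carriers mixed the groups above with others. Beside Arl5a, Dusp1, Dusp2, Cish and Maf they were Hspa1a, a heat shock protein (4.98, 2.48 to 10.4), Tox, a transcription factor of chronically stimulated T cells (4.02, 1.86 to 8.93), Cd74, the invariant chain (3.32, 1.52 to 7.35), Serp1, of the endoplasmic reticulum stress response (3.27, 1.57 to 6.85), G3bp2, a stress granule protein (3.10, 1.44 to 6.73), Atf4, the transcription factor of the integrated stress response (3.02, 1.68 to 5.46), and Penk, which encodes proenkephalin (2.97, 1.93 to 4.58). Penk had 46 UMIs in 13 carriers and 45 in 9 other spleen cells, up to 9 and 17 in 1 cell, and its log2 ratio was -0.77 without cells that held a B cell, CD8 or NK marker. Hspa1a has a near-identical copy that may take part of its reads.

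The 12 lowest rested on few UMIs in carriers. Adgre5, which encodes the adhesion receptor CD97, had 4 UMIs in carriers and 68 in other spleen cells (0.171, 0.045 to 0.458), but without thinning it was seen in 17.7% of carriers and 24.7% of other spleen cells. Rnf10, a ubiquitin ligase, had 2 UMIs in carriers and 34 in other spleen cells (0.171, 0.02 to 0.667). Eif4a3, an exon junction helicase, and Prpf38b, a splicing factor, had 3 UMIs in carriers and 37 in other spleen cells each (0.236, 0.046 to 0.744). Tprgl, Sgpl1, Chmp2a, Celf2 and Tbc1d4 had ratios between 0.247 and 0.310, and Bcl2, Ccr7 and Ly6a completed the 12. Ratios of single genes moved with the random thinning: with another seed Tprgl had a log2 ratio of 0.17 in place of -1.86.

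Carriers differed among themselves by how much of the rule genes they held. VAT-high means were 33.6 UMIs in the 30 carriers with 3 or more rule UMIs, 29.6 in the 16 with 2 and 24.6 in the 50 with 1, against 20.2 in other spleen cells. The ratios to other spleen cells were 1.66 (1.55 to 1.78), 1.47 (1.33 to 1.61) and 1.22 (1.14 to 1.29). Effector Treg ratios were 2.29 (1.92 to 2.72), 1.87 (1.44 to 2.39) and 1.39 (1.17 to 1.65). Resting list ratios were 0.564 (0.389 to 0.794), 0.756 (0.485 to 1.13) and 0.619 (0.47 to 0.802), in no order, and the interval at 2 rule UMIs spanned 1.

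Carriers also differed by which gene of the rule they held. The 58 carriers with Gata3 alone had 7 to 60 VAT-high UMIs (median 24), a ratio of 1.24 (1.17 to 1.32), and an effector Treg ratio of 1.42 (1.20 to 1.67). The 33 carriers with any of Klrg1, Il1rl1, Areg, Il10, Ccr2, Cxcr6 and Pparg had 11 to 96 (median 30), a ratio of 1.67 (1.57 to 1.79), and an effector Treg ratio of 2.23 (1.88 to 2.64). Maf was seen in 11 of these 33 cells (33.3%), in 5 of the 58 with Gata3 alone (8.62%) and in 5.02% of other spleen cells. Without thinning the shares were 36.4%, 10.3% and 8.96%. Vim was seen in 31.03% of carriers with Gata3 alone, 27.3% of the 33 and 19.4% of other spleen cells. The 19 carriers with 2 or more of the rule genes had 18 to 96 VAT-high UMIs, a ratio of 1.83 (1.69 to 1.98). For the rest of the tissue Treg list their ratio was 5.75 (3.85 to 8.45), and that of the 33 carriers above 4.36 (3.03 to 6.19). The 58 carriers with Gata3 alone had 1.34 on that list, with an interval that spanned 1 (0.840 to 2.07).

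The 12 carriers with Klrg1 were rich in effector Treg genes. They held 1 to 15 effector Treg UMIs (median 7), a ratio of 3.09 (2.45 to 3.87), and 18 to 96 VAT-high UMIs (median 31.5). Tnfrsf4 was seen in 8 of 12 (66.7%), Ikzf2 in 8, Foxp3 in 7 (58.3%, 27.7 to 84.8) and Icos in 5. Bcl2 and Ccr7 were seen in 0 of 12, thinned or not, which allows a share of up to 26.5% by the exact interval.

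The 6 carriers with Areg held the most VAT-high UMIs. They had 38 to 96 (median 55), all above the 90th percentile of other spleen cells, a ratio of 2.91 (2.61 to 3.24). Without the AP-1, immediate early and NF-kB lists they had 32 to 65 UMIs, a ratio of 2.48 (2.19 to 2.80). Their AP-1 list ratio was 7.05 (5.20 to 9.41), with 3 to 21 UMIs per cell. The 12 carriers with Il1rl1 had 11 to 96 VAT-high UMIs (median 26.5) and the 7 with Irf4 17 to 49 (median 22).

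A single carrier stood apart. It held 23 UMIs of the rule genes, 10 of Klrg1, 8 of Areg, 3 of Gata3 and 2 of Il1rl1, among 2171 UMIs, with 96 VAT-high UMIs and 14 VAT-low UMIs after thinning, the lowest VAT-low value among carriers. It had 12 UMIs of Il2ra, 1 of Foxp3 and 0 of Izumo1r. The next carrier had 12 UMIs of the rule genes, all Klrg1, with 35 VAT-high and 41 VAT-low UMIs. Without the first cell the log2 ratio of VAT-high UMIs was 0.45, and without the 5 carriers richest in the rule genes 0.44, against 0.48 with all. The 5 carriers with most VAT-high UMIs gave 12.5% of the VAT-high UMIs of all carriers.

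Markers of other cell types were in part higher in carriers, and their part in the differences was not tested except as given here. B cell markers had 23 UMIs in carriers and 24 in other spleen cells, a ratio of 2.79 (1.502 to 5.15), of which Cd74 gave 16 in carriers and 14 in other spleen cells, H2-Aa 3 and 6, H2-Ab1 2 and 3, H2-Eb1 1 and 1, and Cd79b 1 and 0. Cd79a, Ms4a1 and Ebf1 had 0 in both. CD8 and NK cell markers had 23 UMIs in carriers and 22 in other spleen cells, a ratio of 3.04 (1.62 to 5.72). Ccl5, a chemokine of effector T and NK cells, gave 14 UMIs in each group (2.91, 1.28 to 6.58), Cd8b1 had 5 UMIs in carriers and 8 in other spleen cells (1.82, 0.468 to 6.30), Klrk1 had 3 and 0, and Nkg7 had 1 and 0. Cd8a, Klrd1, Klrb1c, Ncr1 and Gzma had 0 in both. A B cell, CD8 or NK marker was seen in 35.4% of thinned carriers and 14.7% of other spleen cells, and in 45.8% and 23.3% without thinning. Of the 18 genes of these 2 lists, 9 had no UMI.

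Without the cells that held such a marker, 52 carriers remained, with log2 ratios of 0.46 for VAT-high UMIs and 0.70 for effector Treg UMIs, against 0.48 and 0.81 with all cells. The number of VAT-high genes at least 2-fold higher was then 10, against 22 with all cells. Myeloid markers (0.907, 0.598 to 1.34) and erythroid markers (0.866, 0.44 to 1.60) had intervals that spanned 1, and 36.5% of thinned carriers and 39.1% of other spleen cells held a UMI of them. Lyz2, Csf1r, C1qa and Cd68 had 0 UMIs in both. Leaving out every cell with a marker of B, plasma, myeloid, CD8, NK or erythroid cells kept 21 carriers and 95 other spleen cells, and the log2 ratio of VAT-high UMIs was then 0.36 (0.21 to 0.50), that of effector Treg UMIs 0.39 with an interval from -0.06 to 0.83, and that of resting UMIs -0.20 with an interval from -0.73 to 0.31. Adipocyte and stromal markers had 1 UMI in carriers and 20 in other spleen cells, from Pecam1 (1 and 16) and Lpl (0 and 4) alone. The other 8 genes of the list, among them Adipoq, Cfd and Col1a1, had 0.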

How the data were processed

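The authors deposited 1 table of UMI counts, not normalized, with a row per gene symbol and a column per cell; per the submitters' processing notes TopHat2 and SAMtools were used with build mm10. The annotation and the cell filter are not given in the sources used here. Cells were grouped by the source name in the labels (375 spleen cells, 96 of them carriers and 279 others, and 330 and 314 VAT cells), 475 genes were VAT-high and 207 VAT-low, and all 23725 rows and all columns of the 3 libraries were read. The spleen library held 573622 UMIs and the VAT libraries 556099 and 548770. Cells were thinned without replacement (seed 1) to 750 UMIs with the rule genes left out, or to 800 for the rule genes. Ratios are UMIs per thinned UMI with conditional binomial (Clopper-Pearson) intervals; log2 ratios of single genes add 0.5 UMI. Spleen is 1 library, so no model was fitted. Python 3.11.15, numpy 2.4.6, pandas 2.3.3, scipy 1.17.1 and matplotlib 3.10.9 were used, and thinning was tested on simulated data. The simulated UMIs fell independently, so that test does not cover the clumping of UMIs in these cells. The carriers and the 19 gene lists were chosen with earlier results of these data known. Named genes were those of the rule, the 12 highest and 12 lowest ratios, the 12 VAT-high genes with most spleen UMIs, up to 4 per list and 19 fixed genes; others are list members that were named after their values were seen. Coordinates are 1-based on GRCm38 (mm10) from GENCODE M21, which held 22822 of the 23725 symbols. Rnf213, Trac, Trbc1, Trbc2, Ighd, Ighm, Igkc, Iglc2, Hba-a1 and Hbb-b1 were not analysed here. Bcl2a1 genes, Hspa1a, Hba-a2 and H2 genes have near-identical copies that may share reads. Alternatives covered depth, membership, VAT thresholds, gene minimums, totals and cells left out.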

Additional observations from a re-analysis of the deposited data

How the results depend on the processing

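VAT-high UMIs were higher and VAT-low UMIs lower in carriers under all 20 and all 18 alternatives, with log2 ratios from 0.32 to 0.83 and from -0.23 to -0.07. The VAT-low interval spanned 0 at 4-fold VAT thresholds (-0.19 to 0.04). It also did without cells holding any marker of another cell type (-0.21 to 0.03). Over the results of the design 46 values moved. The Foxp3 difference, whose interval spanned 0 with all cells, changed sign in 3 alternatives, given below with their values. With 2 or more rule UMIs (46 carriers) the log2 ratios were 0.67 for VAT-high, -0.23 for VAT-low, 1.10 for effector Treg, 0.71 for S100 and 1.20 for AP-1 genes, 11 VAT-high genes were at least 2-fold lower, and the Foxp3 difference was 17.6 points. With the rule without Gata3, Irf4 and Rora (33 carriers) VAT-high was 0.74, effector Treg 1.16, resting -1.14 and AP-1 1.41; with these 3 alone (63 carriers) the values were 0.32, 0.58 and, for AP-1, 0.63, with 13 genes higher and a Foxp3 difference of -0.87 points. Cells with a Foxp3 UMI (41 carriers) gave 0.70 for VAT-high, 1.17 for effector Treg and -1.03 for resting genes, with 9 genes higher and 1 lower. Without cells holding any marker of another cell type (21 carriers) the values were 0.36, 0.39 and -0.20, with 3 genes higher and a Foxp3 difference of -11.0 points; there NF-kB (-0.0101), MHC class I (-0.0161), Arl5a (-0.99), Bcl2 (0.59) and Nfkbia (-0.14) turned direction. Without cells holding a B cell, CD8 or NK marker (52 carriers) 10 genes were higher, the Foxp3 difference was -4.65 points and Penk turned to -0.77. At 4-fold VAT thresholds VAT-high was 0.83, with 1 gene lower; with totals without ribosomal genes VAT-high was 0.40 and VAT-low -0.19. Resting genes were -0.39 at 1000 UMIs, and AP-1 genes 0.62 in cells matched by UMIs. Genes at least 2-fold higher numbered 40 with no thinning, 36 in matched cells, 50 at a minimum of 10 UMIs and 9 at 50 UMIs; genes lower numbered 2 in matched cells, 4 with another seed, 16 at 10 UMIs and 1 at 50 UMIs. Tprgl turned to 0.17 with another seed. The causes were not tested. With 1 VAT library left out, VAT-high ranged from 0.42 to 0.44, VAT-low from -0.11 to -0.08, genes higher from 22 to 25 and genes lower from 8 to 9. The spleen library could not be left out. No paired analysis was possible because no animal is named and spleen has 1 library.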
